A study of Homo sapiens with 12 samples.

Results

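The comparison described here is that of 3 libraries from irradiated shFXR cells with 3 libraries from irradiated shControl cells, 6 of the 12 libraries of the series, chosen by their labels. The cells are A549, an established human lung cancer line of epithelial origin. One line held a stable control short hairpin (shControl, genotype WT in the labels) and the other a stable hairpin against FXR (shFXR, genotype FXR knockdown), and both were taken 3 days after ionizing radiation. The remaining 6 libraries are sham-irradiated cells of the same lines, 3 of each, and are used here for the shared estimate of spread and to set values beside those of irradiated cells. All 12 libraries come from stably transfected cells, so every group carries a hairpin. The sources used here give no hairpin sequence, number of clones per line, radiation dose or collection time of sham cells. Each arm is 1 line, so a difference between the lines that was present before the knockdown cannot be told apart from its effect. The design text calls the libraries of a group biological replicates without saying what was replicated, so p values measure the spread between these libraries.

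FXR, the farnesoid X receptor encoded by NR1H4, is a nuclear receptor that bile acids activate. It binds DNA as a heterodimer with the retinoid X receptor, most often at an inverted repeat of the nuclear receptor half-site, and in liver and gut it controls bile acid synthesis and transport and the synthesis of fibrinogen and several complement proteins. It also restrains inflammatory gene expression there. A549 cells are known for strong NRF2 activity through loss of KEAP1 function, for wild-type p53, and for expressing liver-type secreted proteins such as fibrinogen.

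The total counts of the 6 libraries ran from 17140918 to 19036159, and 16053 of 58735 genes had enough counts over the 12 libraries to be tested. Levels are given in TMM-scaled CPM, the usual per-library scaling of counts that takes no account of gene length, and differences as log2 fold changes of shFXR over shControl with their standard error, from edgeR's quasi-likelihood test. A gene is called when its Benjamini-Hochberg adjusted p over all tested genes is under 0.05. In a principal component analysis of these 6 libraries, the lines lay apart on component 1 (67.5% of variance), shControl from -43.0 to -34.5 and shFXR from 36.0 to 41.3. Component 2 (11.4%) placed the shControl libraries at 29.3, -1.003 and -25.2 and kept the shFXR libraries between -4.84 and 2.16. Pairs of shControl replicates differed by a chi-square per degree of freedom of 6.53 to 16.01 and pairs of shFXR replicates by 3.27 to 5.48, so no 2 libraries were alike within sampling noise. Mitochondrial genes took 14.8% ± 1.48 of counts in shControl and 12.6% ± 0.419 in shFXR libraries (SD, n = 3), a difference of -2.25 percentage points with a two-sided exact permutation p = 0.1, the smallest that 3 against 3 allows. The epithelial keratin genes KRT8 and KRT18 were among the highly expressed genes in both lines, while EPCAM, an epithelial adhesion gene, was at 3.35 to 4.99 CPM. NKX2-1, the lung lineage factor, was at or below 0.219 CPM and the surfactant gene SFTPC at or below 0.455 CPM in all 6 libraries.

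The transcript that the hairpin label names was lower in every irradiated shFXR library. NR1H4 (chromosome 12, 100473708 to 100564413, plus strand, hg38) had 22.0, 23.3 and 29.1 CPM in the shControl libraries and 2.84, 3.10 and 3.05 CPM in the shFXR libraries, groups that do not overlap. The log2 fold change was -3.05 ± 0.17 (adjusted p = 2.8e-11), and it was -2.51 ± 0.16 between the sham lines; the difference between these effects did not pass (adjusted p = 0.13). RXRA, which encodes the receptor's usual partner, had 75.3, 75.4 and 71.6 CPM against 78.2, 85.7 and 77.9 CPM and was not called (log2 0.12 ± 0.07, adjusted p = 0.18). The labels write FXR only, and the RNA-binding protein genes whose symbols share these letters differed by smaller amounts: FXR1 by 0.37 ± 0.08, FXR2 by -0.42 ± 0.08 and their relative FMR1 by -0.29 ± 0.08, each of them called.

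Of 29 listed FXR targets and bile acid genes, 14 had enough counts to be tested, and 3 were higher and 6 lower in irradiated shFXR cells, that is 64.3% called where 40.8% of all tested genes were called. SLC51B, a subunit of the transporter that exports bile acids from cells, had 21.1, 23.2 and 28.1 CPM in shControl and 4.78, 7.97 and 4.96 CPM in shFXR libraries (log2 -2.03 ± 0.21, adjusted p = 2.2e-07). Its groups do not overlap, although shFXR library 2 lay above the other two. KNG1, the gene of kininogen and a direct target of the receptor in liver, was at 0.932, 1.09 and 1.46 CPM in shControl libraries and at 0, 0 and 0.0545 CPM in shFXR libraries, where the last value is 1 count, so no fold is given. The hepatic bile acid uptake transporter SLCO1B3 fell by 0.85 on the log2 scale and ABCC2, which exports conjugated bile acids and drugs, by 0.43. In the other direction FGFR4, the receptor for the intestinal hormone FGF19, rose by 0.84 ± 0.11 from 19.2, 16.6 and 15.2 to 29.6, 28.6 and 32.8 CPM, and PLTP, the phospholipid transfer protein gene, by 1.29 ± 0.35 at 0.542 to 2.67 CPM. Among the 15 genes of this list without enough counts were the classical targets NR0B2, ABCB11 and FGF19 and the bile acid synthesis gene CYP7A1.

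**Figure D1:**
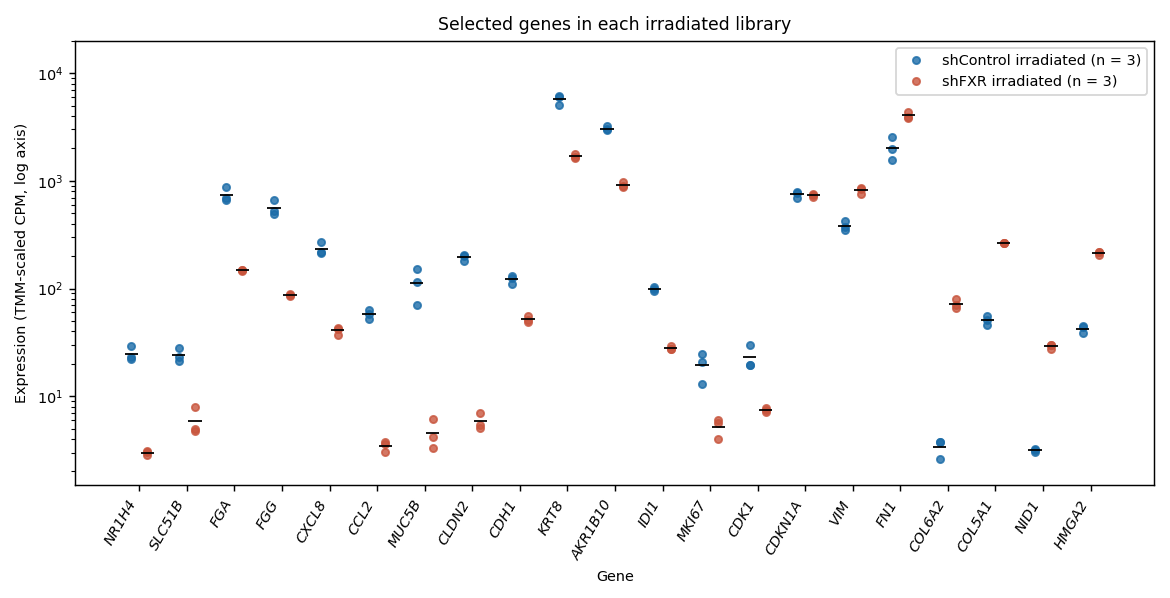
TMM-scaled CPM on a log axis of selected genes in each of the 3 irradiated shControl (blue) and 3 irradiated shFXR (red) libraries, with black bars for the means. The groups are apart for every gene shown except CDKN1A, whose 6 libraries lie between 699 and 783 CPM.

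Across the genome, 6555 of 16053 genes were called (40.8%), 3136 higher (19.5%) and 3419 lower (21.3%) in irradiated shFXR cells. Counts of called list members are to be read beside these shares. The median log2 fold change of all tested genes was -0.001, and the 5 and 95 percent quantiles lay at -1.001 and 0.94. Calls of at least 2-fold numbered 1344, or 8.37% of genes, with 598 higher (3.73%) and 746 lower (4.65%). The balance tipped to falls as changes grew: 99 genes were at least 4-fold higher and 179 at least 4-fold lower, and 17 and 57 passed 8-fold. The 6 libraries did not overlap between the lines for 52.9% of genes, with shFXR higher in 25.8% and lower in 27.1%. Without any 1 of the 6 libraries the number of calls was 5393 to 6281, and 4398 of the 6555 calls (67.1%) were made in the same direction in every one of the 16 alternatives that tested the gene; some alternatives test fewer genes. The balance of directions depended on scaling and level: with total count scaling 3602 genes were higher and 2799 lower, and among genes of at least 5 CPM 2789 were higher and 2708 lower.

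Among protein-coding genes of at least 5 CPM, S100A9, CPLX2, LCN2 and CLDN2 had the largest falls. S100A9, a calcium-binding protein gene of myeloid and inflamed epithelial cells, had 58.2, 35.0 and 28.0 CPM in shControl and 0.739, 1.09 and 1.53 CPM in shFXR libraries (log2 -5.16 ± 0.33, adjusted p = 2.5e-10). CPLX2, which encodes the exocytosis regulator complexin 2, fell by 5.15 on the log2 scale from 45.8, 43.2 and 47.9 to 1.54, 1.55 and 0.763 CPM. The iron-siderophore-binding lipocalin gene LCN2 fell from 36.8, 44.7 and 39.3 to 1.14, 0.975 and 1.47 CPM, and the pore-forming claudin gene CLDN2 from 199, 205 and 179 to 5.46, 6.998 and 5.07 CPM. Each of these genes was between 28.0 and 205 CPM in every shControl library and at or below 6.998 CPM in every shFXR library. Also among the 20 largest falls were SLPI and PI3, protease inhibitor genes of mucosal surfaces, RARRES1, the vitamin B12 binding protein gene TCN1, the ubiquitin ligase gene TRIM31, the annexin gene ANXA13 and the mucus protein gene FCGBP, with log2 fold changes between -3.68 and -3.32.

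The largest rises were in COL6A2, which encodes a chain of collagen VI, CACNG7, which encodes an auxiliary subunit of calcium channels and glutamate receptors, and the matrix genes NID1 and SPOCK1. CACNG7 rose by 3.599 ± 0.21 from 1.37, 0.801 and 0.759 to 11.1, 10.8 and 13.8 CPM. HMGA2, a chromatin protein of embryonic cells and many carcinomas, rose from 38.4, 43.6 and 45.2 to 221, 205 and 219.7 CPM (log2 2.34 ± 0.10, adjusted p = 5.5e-13). The hyaluronan synthase gene HAS2 rose by 2.44 ± 0.13, the secretogranin gene SCG2 by 2.63 ± 0.19, the potassium channel gene KCNH3 by 2.43 ± 0.20 and the actin-binding protein gene SHROOM2 by 2.37 ± 0.23. Further genes of this set were the extracellular protein gene PAPLN, the guanine nucleotide exchange factor gene NGEF, the adhesion receptor gene ADGRA2, the cadherin gene CDH4 and ICAM5, which rose by 1.85 to 2.21.

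**Figure D2:**
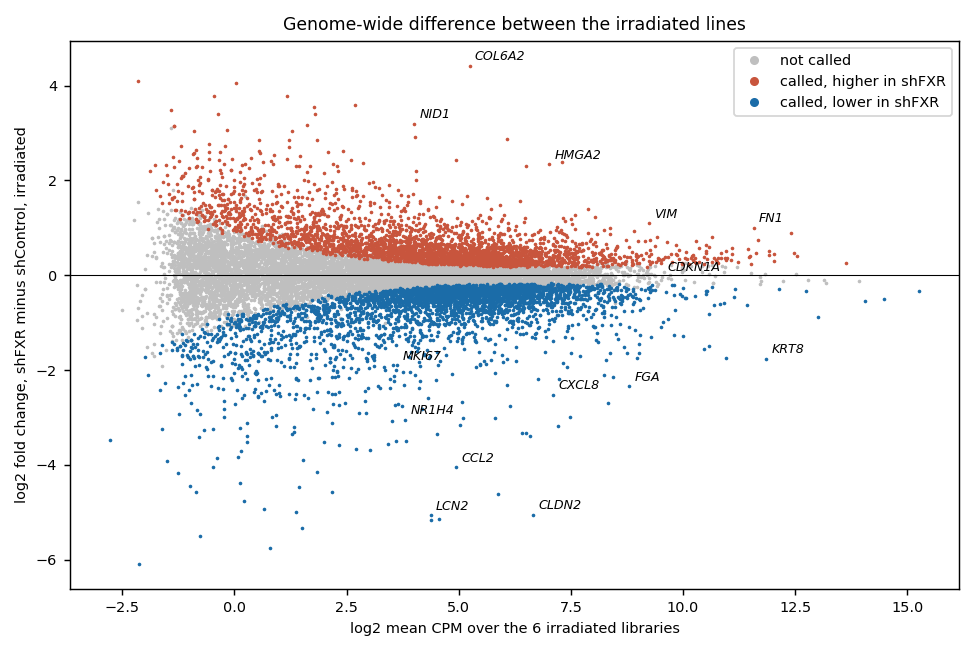
Log2 fold change of shFXR over shControl in irradiated cells against the log2 mean CPM of the 6 libraries for all 16053 tested genes, with called genes in colour. Falls reach further than rises, with 57 called genes at least 8-fold lower and 17 at least 8-fold higher, and CDKN1A lies at the zero line.

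Genes of the acute phase response, the set of plasma proteins that liver secretes in inflammation, were lower together. Of 20 listed, 13 were tested and 11 fell, while 0 rose, with a median of -2.34 against -0.001 over all tested genes. The 3 chain genes of fibrinogen, the clotting protein, lie side by side on chromosome 4 (154562956 to 154612967) and were highly expressed in irradiated shControl cells. FGA had 881, 692 and 665 CPM in shControl and 145, 150.0 and 148 CPM in shFXR libraries (log2 -2.34 ± 0.14, adjusted p = 5.7e-11). FGG had 664, 497 and 519.8 against 84.7, 86.3 and 88.2 CPM (log2 -2.70 ± 0.15) and FGB 619.8, 508 and 575 against 134, 129 and 121 CPM (log2 -2.15 ± 0.12). For each chain the lowest shControl library lay far above the highest shFXR library. CP, the gene of the copper-carrying ferroxidase ceruloplasmin, fell by 3.17 on the log2 scale to 28.1, 32.2 and 27.9 CPM. SAA1 (-3.01 ± 0.16) and SAA2 (-3.66 ± 0.25), serum amyloid A genes, fell as well, but they are near-identical, so it is uncertain how reads were shared out between them.

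Complement genes were split. Of 16 tested, 8 fell and 2 rose, 62.5% called beside 40.8% of all tested genes, with a median of -0.45. The fluid-phase regulators CFI and C4BPA fell by 2.39 and 2.22 on the log2 scale and the terminal component C5 by 1.93, from 62.0, 71.2 and 64.4 to 18.8, 16.5 and 16.4 CPM. C3, the central component, stayed at 1351, 1359 and 1077 CPM against 1138, 1193 and 1113 CPM and was not called (adjusted p = 0.23), although it was called lower with limma's library weights and without irradiated shControl library 3 (adjusted p = 0.00396 and 0.0257). CLU, which encodes clusterin, rose by 0.47 ± 0.08, and C4BPB, the beta chain partner of the C4BPA product, by 1.01 ± 0.25 at 1.54 to 4.83 CPM.

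Chemokine genes that attract neutrophils and monocytes were lower as a group. Of 11 tested, 8 fell and 0 rose (1 rose without irradiated shControl library 1), with a median of -1.52. CXCL8, which encodes interleukin 8, had 271, 220.4 and 212 CPM in shControl and 41.7, 43.2 and 37.4 CPM in shFXR libraries (log2 -2.52 ± 0.14, adjusted p = 4.5e-11). CCL2, a monocyte attractant, fell from 58.2, 52.0 and 63.0 to 3.01, 3.79 and 3.598 CPM (log2 -4.06 ± 0.13). CXCL5, a further neutrophil attractant, fell from 596, 625 and 611 to 224, 215 and 200 CPM (log2 -1.52 ± 0.07). CXCL1 fell by 2.19; it shares much of its sequence with CXCL2 and CXCL3, so reads could be split between them. The groups do not overlap for any of these 4 genes.

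Cytokine genes followed in part: 10 of 17 tested genes fell and 2 rose. IL6, the cytokine that induces the acute phase response in liver, was at 7.07, 5.43 and 5.10 CPM in shControl and 0.739, 0.229 and 1.47 CPM in shFXR libraries (log2 -2.83 ± 0.36). CSF3, the granulocyte growth factor gene, fell by 3.12, TNFSF15 by 1.74, the stress cytokine gene GDF15 by 1.11 and LIF by 0.86. The oncostatin M receptor gene OSMR rose by 0.36 ± 0.09, and IL18 by 0.21 ± 0.08, a narrow call (adjusted p = 0.049) that was lost under 7 alternatives, among them the replicate block and leaving out any 1 of the irradiated libraries except shControl library 3. Without shControl library 2 or any shFXR library, 1 gene of the list was called higher.

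NF-kB, AP-1 and MAP kinase genes moved both ways. Of 20 NF-kB subunit and feedback genes, 7 rose and 5 fell, with a median of -0.03. NFKB2 rose by 0.95 ± 0.09 from 81.1, 79.2 and 70.7 to 155, 137 and 156 CPM, RELB by 0.61 ± 0.12 and the inhibitor gene NFKBIA by 0.44 ± 0.08, while TNFAIP2, an NF-kB-induced gene, fell by 1.30 and the receptor gene TLR4 by 0.80. Among 18 AP-1 and immediate early genes 9 rose and 2 fell (1 without irradiated shFXR library 1 or 2), 61.1% called. MYC rose from 207, 247 and 211 to 428, 448 and 459 CPM (log2 1.01 ± 0.08, adjusted p = 4.1e-09), KLF6 by 0.91 ± 0.10 and JUN by 0.83 ± 0.12. FOS varied from 48.3 to 116 CPM among shControl and from 21.9 to 55.5 CPM among shFXR libraries, groups that overlap. Its call (log2 -0.96 ± 0.32) was lost in DESeq2 (adjusted p = 0.107) and without irradiated shControl library 1, where it was -0.437 (adjusted p = 0.245), or without irradiated shFXR library 1 or 2. Of 18 genes that report MAP kinase activity 7 rose and 6 fell, with the EGF receptor ligand genes AREG and EREG at 1.22 ± 0.11 and 0.58 ± 0.12 and the phosphatase genes DUSP6 and DUSP4 at -0.73 ± 0.10 and -0.59 ± 0.08; without irradiated shControl library 1 or shFXR library 1, and with total count scaling, 3 fell.

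Mucin and mucous cell genes fell in 6 of 10 tested cases and rose in 1 (0 without irradiated shControl library 3 or shFXR library 3), with a median of -1.55. MUC5B, the main airway mucin gene, had 151, 115 and 70.8 CPM in shControl and 4.21, 6.19 and 3.27 CPM in shFXR libraries (log2 -4.63 ± 0.32, adjusted p = 9.7e-10). It varied among shControl libraries, with library 1 highest and library 3 lowest, and the lowest of them was still far above every shFXR library. MUC5AC, the other gel-forming airway mucin gene, showed the same order, with 35.7, 25.8 and 16.2 CPM against 2.05, 2.81 and 2.02 CPM. SPDEF, the transcription factor of goblet cells, fell from 9.48, 8.86 and 7.59 to 0.398, 0.402 and 0.273 CPM and AGR2, a disulfide isomerase gene needed for mucin folding, from 332, 319.8 and 312 to 97.3, 102 and 95.2 CPM. Of 23 S100 and annexin genes 10 fell and 1 rose, 47.8% called beside 40.8% of all tested genes. ANXA4 fell from 507, 539.6 and 561 to 213, 222 and 201 CPM and ANXA6 rose by 0.69 ± 0.08.

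Endoderm and liver-type transcription factor genes moved both ways, with 4 of 18 higher and 6 lower. That is 55.6% called, beside 40.8% of all tested genes (19.5% higher and 21.3% lower). SOX2 fell by 1.39, SOX9 by 1.04 and FOXA1 by 0.91 on the log2 scale. FOXA2 rose by 0.44 ± 0.10 from 17.2, 17.8 and 17.4 to 24.8, 23.5 and 22.6 CPM, and ONECUT2 by 0.61 ± 0.15. HNF4A, a master regulator of hepatocyte genes, was not called at 11.6, 11.3 and 10.1 against 10.2, 10.2 and 8.39 CPM (adjusted p = 0.23). Without irradiated shControl library 3 or shFXR library 2 or 3, 2 of these factors were called higher.

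Epithelial junction genes fell in 10 of 29 tested cases and rose in 5 (3 without irradiated shFXR library 1 or 2). The share called was 51.7%, beside 40.8% of all tested genes. CDH1, the gene of the epithelial cadherin, had 131, 125 and 111 CPM in shControl and 50.9, 55.7 and 48.4 CPM in shFXR libraries (log2 -1.24 ± 0.11, adjusted p = 1.4e-08). The tight junction scaffold gene TJP3 fell by 1.97 and the protease inhibitor gene SPINT2 by 1.04, whereas CLDN1 (0.56 ± 0.07) and the desmosomal cadherin gene DSC2 (0.77 ± 0.14) rose. EPCAM was not called (log2 -0.20 ± 0.20, adjusted p = 0.46). Of 11 keratin genes 5 fell and 2 rose, 63.6% called. KRT8 and KRT18, whose products pair in simple epithelia, fell together, KRT8 from 5015, 6023 and 6147 to 1789.6, 1653 and 1615 CPM (log2 -1.76 ± 0.13) and KRT18 from 1972, 2204 and 2198 to 751, 686 and 724 CPM (log2 -1.56 ± 0.13). KRT7 went the other way by 0.28 ± 0.08, a call lost without irradiated shControl library 1 (adjusted p = 0.0566) or shFXR library 3 (adjusted p = 0.0691), which leaves 1 keratin gene higher.

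Genes of the epithelial-mesenchymal switch rose in 6 of 11 tested cases and fell in 0, 54.5% called beside 40.8% of all tested genes. VIM, the intermediate filament gene of mesenchymal cells, had 422, 348 and 375 CPM in shControl and 834, 759 and 866 CPM in shFXR libraries (log2 1.10 ± 0.10, adjusted p = 3.8e-08). FN1, the fibronectin gene, rose from 2544, 1982 and 1558 to 3867, 4398 and 3956 CPM (log2 1.01 ± 0.16), with shControl library 1 nearest to the shFXR libraries. The neural cadherin gene CDH2 rose by 0.86 ± 0.07 and the repressor genes SNAI2 and TWIST1 by 1.67 ± 0.18 and 0.66 ± 0.10. ZEB1, another such repressor, was not called at 14.5, 16.8 and 17.7 against 14.7, 16.9 and 14.3 CPM (adjusted p = 0.59).

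**Figure D3:**
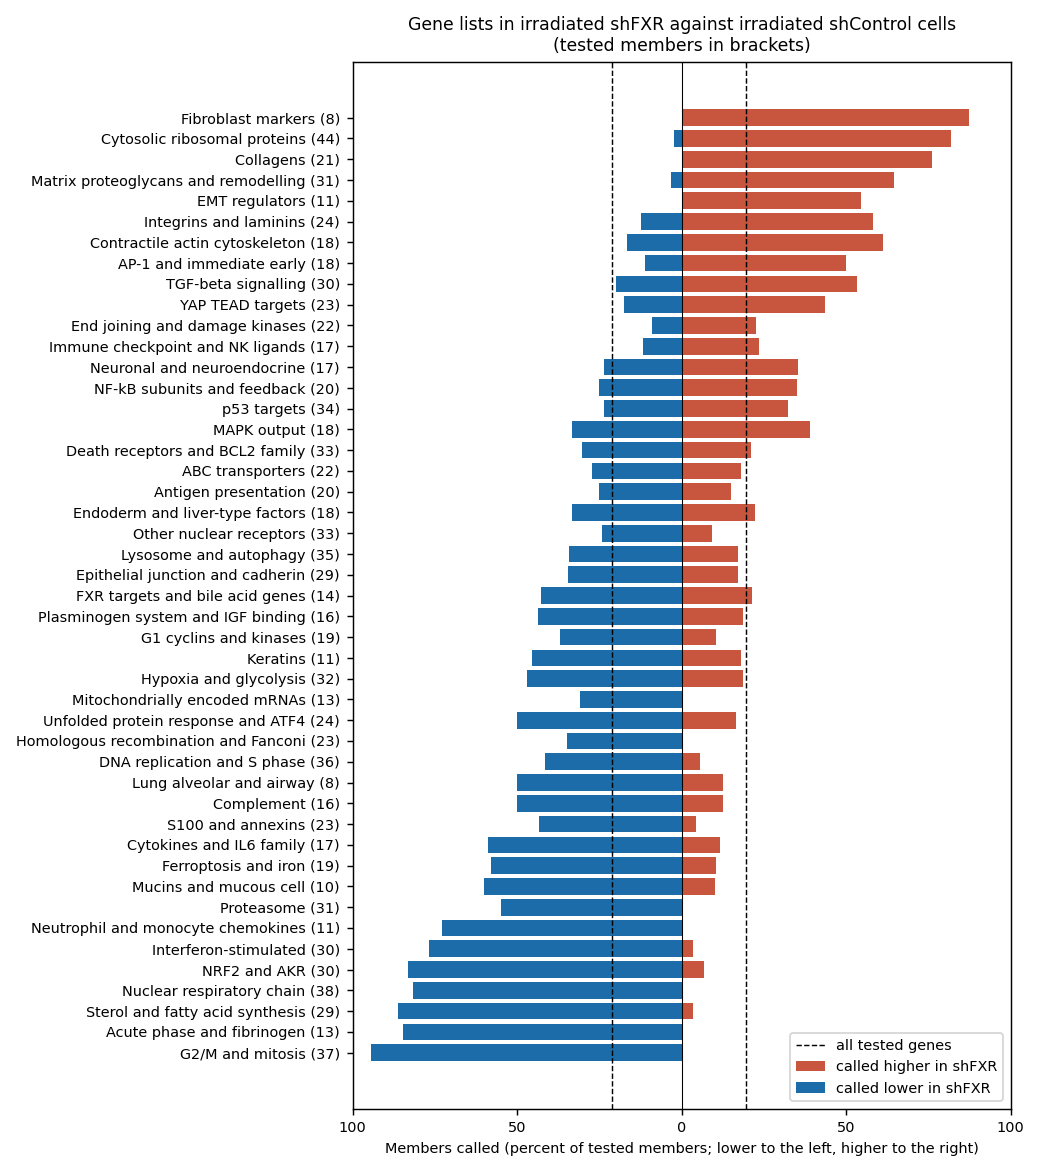
Percent of the tested members of each gene list that were called higher (red, to the right) or lower (blue, to the left) in irradiated shFXR cells, for lists of at least 8 tested members, with dashed lines at the 19.5% and 21.3% of all tested genes. G2/M, acute phase, sterol, respiratory chain and NRF2 lists lie furthest to the left, and fibroblast marker, ribosomal protein and collagen lists furthest to the right.

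Collagen genes rose in 16 of 21 tested cases and fell in 0, with a median of 0.74. COL6A2 had 3.73, 3.77 and 2.60 CPM in shControl and 66.0, 70.2 and 80.4 CPM in shFXR libraries, the largest called rise among genes of at least 5 CPM (log2 4.42 ± 0.12, adjusted p = 5.4e-16). COL6A1, its neighbour on chromosome 21, rose from 17.1, 16.4 and 15.2 to 112, 115 and 132 CPM (log2 2.88 ± 0.09). COL5A1, a fibrillar chain, rose from 56.0, 50.8 and 45.9 to 266, 267 and 265 CPM (log2 2.39 ± 0.12), with shFXR libraries that lay close together. COL4A2, a basement membrane chain, rose by 0.96 ± 0.07 from 101, 100.4 and 92.8 to 203, 182 and 188 CPM.

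Other matrix genes behaved likewise, with 20 of 31 tested proteoglycan and remodelling genes higher and 1 lower. The basement membrane linker gene NID1 rose from 3.18, 3.26 and 3.04 to 27.2, 30.0 and 29.7 CPM (log2 3.19 ± 0.14) and the proteoglycan gene SPOCK1 from 4.22, 3.66 and 3.53 to 29.8, 26.0 and 30.1 CPM (log2 2.91 ± 0.16). The sulfatase gene SULF2 and the small proteoglycan gene DCN both rose by 1.39. The 1 that fell was MMP7, an epithelial metalloprotease gene, from 60.6, 55.3 and 59.0 to 5.97, 7.17 and 6.43 CPM (log2 -3.16 ± 0.11). Of 24 integrin and laminin genes, the cell surface receptors for matrix and their basement membrane ligands, 14 rose and 3 fell. The fibronectin receptor subunit gene ITGA5 rose from 114, 101 and 93.4 to 219, 215 and 248 CPM and ITGA3 by 0.73 ± 0.08, while ITGB4, the hemidesmosome integrin gene, fell by 0.54 (-0.361 without irradiated shControl library 1).

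Contractile genes rose in 11 of 18 cases and fell in 3: MYL9 by 1.97 ± 0.18, TAGLN by 1.83 ± 0.14, PDLIM7 by 1.03 ± 0.09 and ACTA2, the smooth muscle actin gene, by 0.99 ± 0.09, with MYLK lower by 0.63. In the TGF-beta pathway 16 of 30 genes rose and 6 fell. The type I receptor gene TGFBR1 rose from 106, 105 and 118 to 278, 239 and 238 CPM (log2 1.195 ± 0.09) and the latency proteins LTBP1 and LTBP4 by 1.21 ± 0.10 and 1.11 ± 0.14. The signal transducer gene SMAD2 fell from 152, 141 and 138 to 73.7, 73.4 and 68.9 CPM, the inhibitor gene SMAD7 rose by 0.62 ± 0.08, and the ligand gene BMP4 fell by 1.42. PLAU, which encodes a plasminogen activator, fell by 0.98. YAP and TEAD target genes were split, 10 of 23 higher and 4 lower with a median of -0.03, 60.9% called beside 40.8% of all tested genes. WWTR1, which encodes the coactivator TAZ, fell from 165, 174 and 185 to 85.5, 80.2 and 74.2 CPM, and AXL and FJX1 rose by 0.75 ± 0.07 and 1.22 ± 0.12.

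Markers of fibroblasts were mostly higher. This list shares genes such as COL1A2 and POSTN with the collagen and remodelling lists, and it is not taken as independent of them. Both of these genes had too few counts to be tested and add nothing to the called members. Of 12 such markers 8 were tested, 7 were higher and 0 lower. Their summed level was 51.1 to 59.6 CPM in shControl and 99.9 to 107 CPM in shFXR libraries. COL1A2 and PDPN of this list had no count in the 6 libraries, and COL3A1 was at or below 0.918 CPM in every one of them. In bulk RNA a change in the share of some cells and a change of RNA per cell cannot be told apart, and the part of other cells in these rises was not tested. Leukocyte markers summed to 23.8 to 49.9 CPM in shControl and 17.1 to 23.1 CPM in shFXR libraries, mostly from CD14 (46.4, 28.6 and 21.9 against 12.1, 14.3 and 15.8 CPM), with PTPRC at or below 0.108 CPM. Endothelial markers summed to 2.17 to 2.69 CPM against 2.27 to 2.83 CPM, erythroid markers to 0.0548 to 0.434 against 0.273 to 0.344 CPM, and hepatocyte markers to 111 to 115 against 70.6 to 79.0 CPM.

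The genes of cell division were lower in irradiated shFXR cells almost without exception. Of 37 genes of G2, the phase before division, and of mitosis (G2/M), 35 fell and 0 rose, with a median of -1.33. MKI67, whose product Ki-67 marks cycling cells, had 13.1, 20.7 and 24.5 CPM in shControl and 6.03, 5.62 and 4.03 CPM in shFXR libraries (log2 -1.90 ± 0.24, adjusted p = 2.5e-06). TOP2A, which untangles replicated DNA, had 43.4, 66.6 and 87.2 against 23.1, 21.9 and 19.4 CPM (log2 -1.61 ± 0.18). CDK1, the kinase that starts mitosis, had 19.6, 19.6 and 29.8 against 7.85, 7.40 and 7.09 CPM (log2 -1.63 ± 0.15). In MKI67 and TOP2A shControl library 1 was lowest and library 3 highest, and both genes' groups were still apart. TPX2, a spindle assembly factor gene, fell by 1.53 and CDC25B, a phosphatase gene that activates CDK1, by 0.93.

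Genes of DNA replication were called less evenly, with 15 of 36 lower and 2 higher, 47.2% called beside 40.8% of all tested genes. PCNA, the sliding clamp, fell from 150.3, 164 and 189.6 to 72.6, 78.8 and 70.4 CPM (log2 -1.18 ± 0.11), TK1 by 1.41 and GINS1 by 0.97. CDT1, a licensing factor, rose by 0.37 ± 0.12 and POLD1 by 0.48 ± 0.11; the call of CDT1 was lost without irradiated shControl library 1 or 2 or shFXR library 1, which leaves 1 replication gene higher. Of 23 homologous recombination and Fanconi genes 8 fell and 0 rose, 34.8% called and so below the share of all tested genes. Without irradiated shControl library 3, 5 fell. The nuclease gene EXO1 fell by 1.77, NBN by 0.55 and FANCI by 0.53. In the restriction point machinery of G1, 7 of 19 genes fell and 2 rose, 47.4% called. Without irradiated shControl library 1 or shFXR library 1 or 2, 1 rose. E2F1 was at -0.80 ± 0.14, CCND3 at -0.83 ± 0.10 and the inhibitor genes CDKN2C and CDKN1B at -1.26 ± 0.14 and -0.65 ± 0.11.

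The promoters of such genes are known for CHR elements, through which cell cycle genes are repressed in resting cells, and CCAAT boxes. RefSeq promoter windows of GRCh38.p14 ran from 250 bases before to 50 after RefSeq's start, which can differ from the end of the deposited gene. In these, 18 of the 30 matched G2/M genes (60%) held the CHR letters TTTGAA on either strand. The same letters were in 15.4% of all 27305 windows, 9.79% of those of tested genes and 11.7% of those of genes called lower. CCAAT was found in 23 of 30 (76.7%), in 35.7% of all windows and in 36.2% of those of tested genes. The window of CDK1, the G2/M gene with the smallest adjusted p, is shown since it holds both, in capitals. The CHR letters begin 161 and the CCAAT letters 150 bases before the start. CDC25B, the next of these genes by adjusted p, has neither in its window.
CDK1 (chr10:60778081-60778380, plus strand): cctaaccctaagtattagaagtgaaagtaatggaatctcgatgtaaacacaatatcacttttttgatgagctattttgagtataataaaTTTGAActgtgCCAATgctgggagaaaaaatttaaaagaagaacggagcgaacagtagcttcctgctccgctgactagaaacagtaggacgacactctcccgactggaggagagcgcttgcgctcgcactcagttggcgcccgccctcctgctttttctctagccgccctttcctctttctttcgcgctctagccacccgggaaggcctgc

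The p53 targets, which irradiated cells with wild-type p53 induce, were mixed. Of 34 tested, 11 were higher and 8 lower, 55.9% called beside 40.8% of all tested genes, with a median of 0.07. Without irradiated shControl library 1 or 2 or shFXR library 1, 7 were higher. CDKN1A, the gene of the cell cycle inhibitor p21, had 763, 783 and 699 CPM in shControl and 735, 706 and 753 CPM in shFXR libraries and was not called (log2 -0.03 ± 0.07, adjusted p = 0.73; 0.02 with total count scaling). MDM2, the ubiquitin ligase gene of the p53 feedback loop, was lower, with 176, 192 and 188 against 127, 135 and 126 CPM (log2 -0.52 ± 0.07). The death receptor gene FAS fell by 0.78 and TRIM22 by 1.68, while GADD45A rose from 37.8, 46.6 and 43.9 to 76.7, 78.0 and 82.0 CPM and the DNA damage binding protein gene DDB2 from 60.4, 51.6 and 60.8 to 105, 106 and 106 CPM. Among 33 death receptor and BCL2 family genes 10 fell and 7 rose (4 without irradiated shControl library 3), 51.5% called. The pro-death genes PMAIP1 and BID were at -0.60 ± 0.11 and -0.53 ± 0.08 and BOK at 0.83 ± 0.09.

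Interferon-stimulated genes were lower in 23 of 30 tested cases and higher in 1 (0 without irradiated shControl library 1 or 3 or shFXR library 1 or 3), with a median of -0.66. IFIT1, an antiviral RNA-binding protein gene, had 22.8, 24.5 and 29.3 against 10.1, 9.23 and 10.2 CPM (log2 -1.38 ± 0.11). The transcription factor gene IRF1 and the RNA sensor gene OAS1 both fell by 1.28, and TRIM22, also a p53 target, had 28.3, 28.5 and 28.3 against 8.42, 9.81 and 8.34 CPM. Of 20 antigen presentation genes 5 were lower and 3 higher, 40.0% called and so near the 40.8% of all tested genes. B2M, the light chain of class I molecules, fell by 0.55, the immunoproteasome subunit genes PSMB10 and PSMB8 fell by 1.39 and 0.70, and HLA-E rose by 0.31 ± 0.07. The checkpoint ligand gene CD274 was at or below 0.651 CPM in all 6 libraries and was not called. CD276 and NT5E, which encode the checkpoint protein B7-H3 and an adenosine-producing enzyme, rose by 0.56 ± 0.08 and 0.75 ± 0.09, and the NK cell ligand gene ULBP2 fell by 0.80. Of 17 checkpoint and NK ligand genes 4 rose and 2 fell, 35.3% called and so below the share of all tested genes; 1 fell without irradiated shControl library 3 or shFXR library 2.

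Detoxification and lipid synthesis genes were among the most uniformly lower lists. Of 30 genes of the NRF2 antioxidant programme and of aldo-keto reductases, 25 fell and 2 rose (1 without irradiated shControl library 2 or 3 or shFXR library 1 or 3), with a median of -0.71. GPX2, a glutathione peroxidase gene, fell from 166, 164 and 162 to 17.1, 18.0 and 14.2 CPM (log2 -3.32 ± 0.15, adjusted p = 1.8e-12). AKR1B10, a reductase gene that A549 cells express strongly, fell from 3023, 2951 and 3211 to 894, 971 and 878 CPM (log2 -1.74 ± 0.10). The NADPH-producing malic enzyme gene ME1 fell from 131, 127 and 135 to 65.9, 65.1 and 57.2 CPM and the glutathione synthesis subunit gene GCLM from 108, 117 and 123 to 53.9, 59.3 and 48.7 CPM. TRIM16 rose by 0.58 ± 0.08. The aldo-keto reductase genes of the AKR1C group are near-identical to one another, so reads could be split between them.

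NRF2 binds antioxidant response elements, here the letters TGACNNNGC on either strand. They were found in 7 of the 24 matched genes of this list (29.2%), in 13.6% of all windows and in 15.2% of those of tested genes. In the G2/M list, 7 of the 30 matched genes (23.3%) held the same letters. The windows of GPX2 and ME1, which have the smallest adjusted p of the list, are shown, as all windows here, along the gene's own strand from 5′ to 3′, with the letters in capitals. The match in GPX2 begins 122 bases before the start. ME1 holds 2 matches, the first of which begins 137 bases before the start and overlaps the AP-1 letters TGANTCA.
GPX2 (chr14:64942696-64942995, minus strand): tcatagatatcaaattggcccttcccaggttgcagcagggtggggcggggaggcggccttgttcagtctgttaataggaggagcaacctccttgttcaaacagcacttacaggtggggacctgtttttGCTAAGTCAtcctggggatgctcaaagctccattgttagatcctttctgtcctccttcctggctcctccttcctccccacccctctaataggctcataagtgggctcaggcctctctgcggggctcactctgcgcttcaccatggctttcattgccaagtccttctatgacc
ME1 (chr6:83431002-83431301, minus strand): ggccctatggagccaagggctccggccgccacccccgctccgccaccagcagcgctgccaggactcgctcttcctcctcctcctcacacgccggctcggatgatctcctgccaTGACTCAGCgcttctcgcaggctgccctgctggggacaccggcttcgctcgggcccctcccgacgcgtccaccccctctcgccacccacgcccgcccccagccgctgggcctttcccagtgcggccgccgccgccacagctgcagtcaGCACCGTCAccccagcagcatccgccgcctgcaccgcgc

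Sterol and fatty acid synthesis genes, which the transcription factors SREBF1 and SREBF2 switch on when cells lack cholesterol, fell in 25 of 29 cases and rose in 1, with a median of -0.75. IDI1, an isomerase gene of the cholesterol pathway, fell from 99.6, 95.05 and 104 to 27.5, 29.4 and 27.4 CPM (log2 -1.82 ± 0.08, adjusted p = 4.0e-13). The 1 gene that rose was SREBF2 itself, by 0.21 ± 0.07, a call lost without irradiated shControl library 2 or 3 or shFXR library 1 or 2 (adjusted p 0.0525 to 0.0841). Only 22 of the 29 genes were matched to a promoter window, too few to give a share for the list. The oxidase gene MSMO1, which fell from 195, 169 and 160.0 to 66.0, 71.1 and 73.4 CPM, has 4 CCAAT boxes in its window, the motif bound by NF-Y, a known partner of the SREBF proteins, and is shown with them in capitals. The reverse strand match nearest the 5′ end begins 185 bases before the start. The window of IDI1 holds no CCAAT, and neither window holds the sterol regulatory element letters TCACNCCAC. These are single windows and say nothing of the list.
MSMO1 (chr4:165327419-165327718, plus strand): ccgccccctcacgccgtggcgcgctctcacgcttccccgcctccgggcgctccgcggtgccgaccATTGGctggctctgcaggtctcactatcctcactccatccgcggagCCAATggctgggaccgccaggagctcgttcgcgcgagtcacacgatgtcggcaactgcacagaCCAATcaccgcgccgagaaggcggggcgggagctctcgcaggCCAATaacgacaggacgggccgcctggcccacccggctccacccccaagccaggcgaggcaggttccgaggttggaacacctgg

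Stress and nutrient genes were lower more often than higher. Of 24 unfolded protein response and ATF4 genes 12 fell and 4 rose (1 without irradiated shFXR library 1, 2 without shFXR library 2 or 3 or shControl library 3), with the pseudokinase gene TRIB3 falling from 86.5, 81.1 and 82.7 to 28.7, 24.95 and 27.5 CPM, the cystine transporter gene SLC7A11 by 1.29 and the stress transcription factor gene XBP1 by 0.90. Of 19 ferroptosis and iron genes 11 fell and 2 rose. ACSL4, which loads membranes with polyunsaturated fatty acids, fell from 822, 739 and 716 to 273, 286 and 273 CPM, AIFM2, a suppressor of ferroptosis, by 1.09, and the ferritin gene FTH1 rose by 0.36 ± 0.08. Hypoxia and glycolysis genes fell in 15 of 32 cases and rose in 6 (3 without irradiated shControl library 2 or 3 or shFXR library 1 or 3). CA12, a carbonic anhydrase gene, fell from 854, 773 and 699.6 to 232, 235 and 225 CPM and PGK1, a glycolytic kinase gene, from 972, 928 and 1107 to 532, 481 and 500.5 CPM, while ANGPTL4 rose from 39.8, 38.5 and 45.3 to 137, 98.4 and 132 CPM and PFKP from 206, 202 and 211 to 425, 367 and 403 CPM. Lysosome and autophagy genes fell in 12 of 35 cases and rose in 6, 51.4% called beside 40.8% of all tested genes. The protease gene CTSD fell from 417, 415 and 366 to 141, 150.2 and 157 CPM.

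The machinery of energy and protein turnover shifted in many genes at once. Nuclear genes of the respiratory chain fell in 31 of 38 cases (81.6%) and rose in 0, with a median of -0.46 and called changes between -0.26 and -0.93. ATP5F1B, the catalytic subunit gene of ATP synthase, fell from 981, 1050.3 and 1145 to 568, 561 and 543 CPM and UQCRC2, a complex III subunit gene, by 0.68. Of the 13 mRNAs of the mitochondrial genome 4 were lower and 0 higher, 30.8% called beside 40.8% of all tested genes. Their median was -0.12, and in sham cells 12 of them were lower with a median of -0.5. Without irradiated shControl library 2, 2 were called lower, and without shControl library 1 or shFXR library 1 or 3, 1 was. Proteasome subunit genes fell in 17 of 31 cases, PSMC2 by 0.67 and PSMD14 by 0.56, and rose in 0. That is 54.8% called, beside 40.8% of all tested genes. The share called rose with level, and of genes of at least 100 CPM 57.7% were called and 30.7% were lower. Cytosolic ribosomal protein genes went the other way, with 36 of 44 higher and 1 lower (84.1% called), a median of 0.36 and rises between 0.23 and 0.58. RPL13 rose from 1756, 1657 and 1813 to 2575, 2405 and 2833 CPM and RPL4 from 4665, 4509.5 and 5032 to 6633, 6448 and 6722 CPM, and the 1 that fell was RPL19, from 2004, 1909 and 2099 to 1306, 1246 and 1335 CPM. Ribosomal protein genes have many near-identical pseudogenes, so their counts depend on how reads of several origins were assigned.

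The same difference between the lines was measured in sham cells, which share no library with the irradiated ones. There 6001 genes were called (37.4%), 1185 of them at least 2-fold (7.38%). Of the 6555 genes called in irradiated cells, 3269 (49.9%) were called in the same direction in sham cells, which is 54.5% of the sham calls. These were 1415 higher and 1854 lower. Of the 1344 calls of at least 2-fold after radiation, 871 were called the same way in sham cells. The log2 fold changes of sham and irradiated cells were correlated across the 16053 genes (Pearson r = 0.647, Spearman rho = 0.491), given without a p since genes are not independent replicates and the 4 groups were fitted together. Acute phase genes fell in 12 of 13 cases in sham cells (median -2.67), chemokine genes in 10 of 11 (median -1.41), sterol genes in 24 of 29 (median -0.81), interferon-stimulated genes in 23 of 30 (median -0.88) and NRF2 and aldo-keto reductase genes in 23 of 30 (median -0.45). FGA, for example, differed by -2.31 ± 0.14 in sham and -2.34 ± 0.14 in irradiated cells and CXCL8 by -2.08 ± 0.14 and -2.52 ± 0.14.

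**Figure D4:**
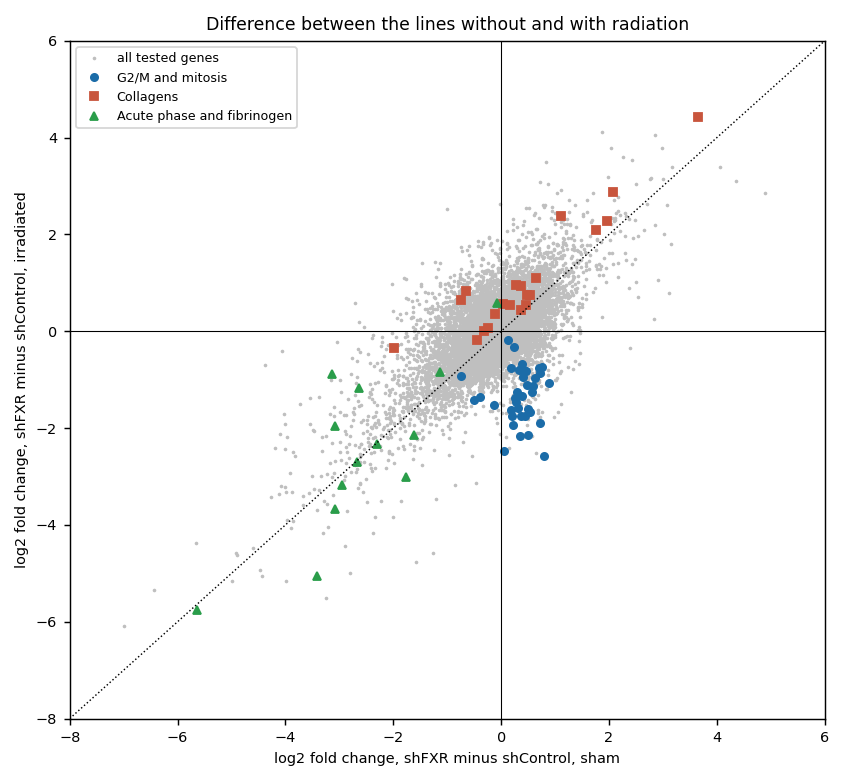
Log2 fold change of shFXR over shControl in irradiated cells (vertical) against that in sham cells (horizontal) for all 16053 tested genes, with 3 gene lists marked and a dotted line of equal values. Acute phase genes lie on both sides of that line with negative values on both axes in 12 of 13 cases, most collagens lie above it, and G2/M genes lie well below it, with a median of -1.33 in irradiated and 0.38 in sham cells.

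A test of the difference between the effects called 2405 genes (15.0%), 1173 with a higher (7.31%) and 1232 with a lower (7.67%) log2 fold change after radiation than in sham cells, and 477 by at least 2-fold (2.97%). This number rests on single libraries more than the main one: it was 1157 without irradiated shControl library 3, 1243 without irradiated shFXR library 3, 1444 without sham shFXR library 3, 1570 without irradiated shControl library 2 and 1595 without sham shFXR library 1. Cell division genes led it. Of the 37 G2/M genes 16 were higher and 1 lower in sham shFXR cells, with a median of 0.38, and the difference was called lower for 35 of 37. MKI67 had 40.0, 54.8 and 61.7 CPM in sham shControl and 82.3, 68.1 and 108 CPM in sham shFXR libraries, so that the line with more of it without radiation had less of it after radiation (difference -2.62 ± 0.30, adjusted p = 7.2e-05). TOP2A (-2.12 ± 0.24) and CDK1 (-1.80 ± 0.20) differed in the same way. The difference was called lower for 26 of 36 replication genes and 12 of 23 homologous recombination and Fanconi genes, and called higher for 0 of either list.

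Matrix genes differed in the other direction. The difference was called higher for 9 of 21 collagen genes, 15 of 31 proteoglycan and remodelling genes and 9 of 24 integrin and laminin genes, and called lower for 0, 1 and 0 of them. VIM differed by 0.25 ± 0.10 between the sham lines and by 1.10 ± 0.10 after radiation (difference 0.85 ± 0.14, adjusted p = 0.001), and FN1 by 0.16 ± 0.16 and 1.01 ± 0.16 (difference 0.85 ± 0.22, adjusted p = 0.016). COL5A1 (1.29 ± 0.16) and LTBP4 (1.28 ± 0.19) also had a called difference. In all, 228 genes were called in both treatments with opposite direction.

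**Figure D5:**
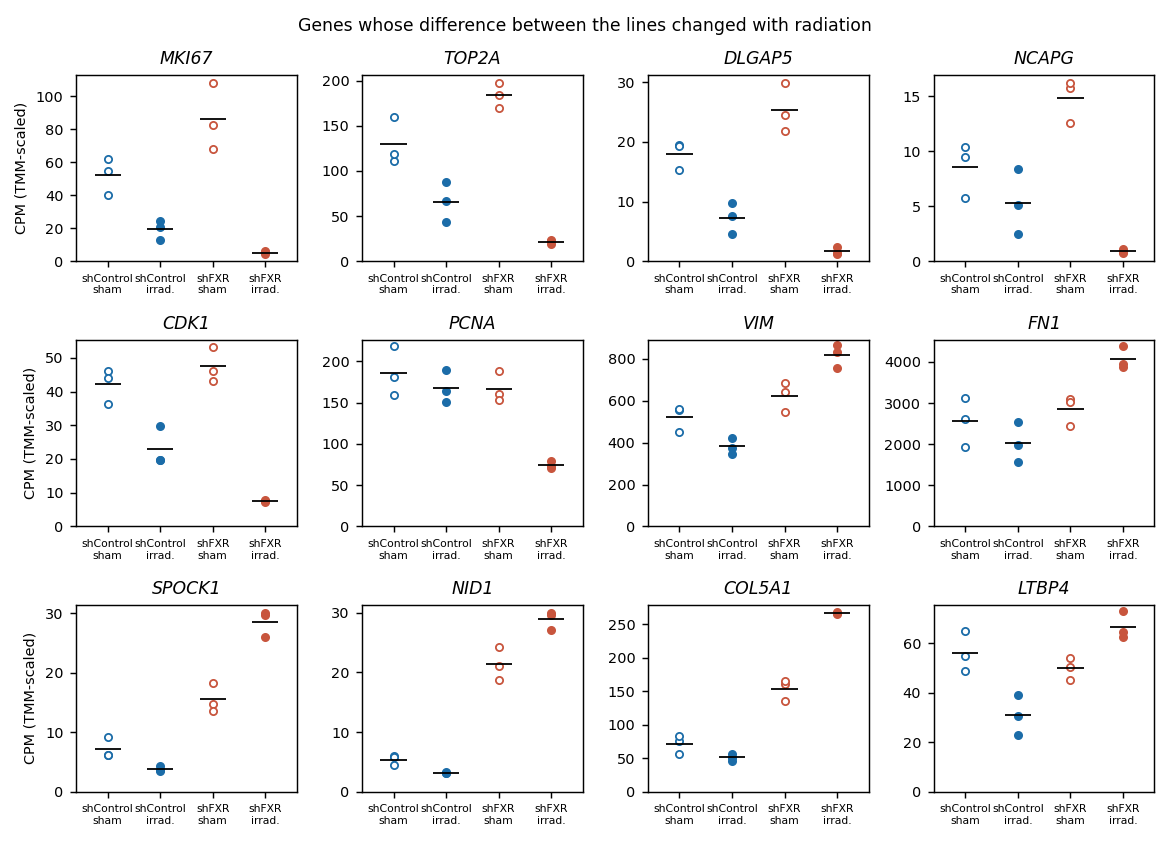
TMM-scaled CPM, on axes that start at 0, of 12 genes in each library of the 4 groups, with open circles for sham and filled circles for irradiated cells and black bars for the means. The division genes MKI67, TOP2A, DLGAP5, NCAPG and CDK1 and the clamp gene PCNA are lowest in irradiated shFXR cells, and VIM, FN1, SPOCK1, NID1, COL5A1 and LTBP4 have their highest mean there.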

How the data were processed

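Per the labels' protocols, poly-A RNA of each library was copied into cDNA with random hexamers. The authors deposited a table of raw counts per gene and library; the submitters' processing notes name hg38 and DESeq2 1.20.0. The sources used here do not give the aligner, the counting tool or its strand setting. All 12 columns matched a sample label, and 0 columns were left unused.

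Counts were filtered with filterByExpr (minimum count 10, minimum total 15), scaled by TMM and fitted with edgeR 4.0.16 (R 4.3.3) by quasi-likelihood with 1 coefficient per group over the 12 libraries (residual degrees of freedom 8, common BCV 0.0874). Contrasts were shFXR minus shControl in irradiated cells, the same in sham cells, and their difference, with Benjamini-Hochberg adjustment over 16053 genes. A standard error is the size of the log2 fold change over the root of its F. The fit was tested on simulated data drawn from its own means and spreads, with far fewer changed genes than were called here. Such data cannot show how well the model holds for these libraries. The mitochondrial share was compared with an exact permutation test.

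The comparison, the gene lists and the genes always given were chosen with earlier results of these data known. Named are those genes, the 20 protein-coding genes with the largest rise and fall of at least 5 CPM whose groups do not overlap, up to 4 called members of each list in its main direction and 2 in the other by adjusted p, the 6 largest called differences each way, genes with no count in one group, and up to 3 noncoding RNAs each way. RefSeq promoters (GRCh38.p14) were matched by symbol and shown for up to 6 genes of the lists with the highest share of called members. Alternatives were RLE and total count scaling, no filter, at least 5 CPM, protein-coding genes only, no mitochondrial genes, only the groups compared, a replicate block, DESeq2 1.42.0, limma 3.58.1 with voom library weights, and leaving out each library. Intervals of counts are not given. Errors of log2 fold changes are the standard errors defined above, from the fit over the 12 libraries. Those of the mitochondrial share are SDs between 3 libraries.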

Additional observations from a re-analysis of the deposited data

Results flagged for a closer look

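In 12 genes the effect of the knockdown in irradiated cells differed from that in sham cells by the test of the difference itself, and these had the largest differences in each direction among protein-coding genes of at least 5 CPM. The 6 with a lower effect after radiation were NCAPG (-3.38 ± 0.46), a condensin subunit gene, DEPDC1 (-3.16 ± 0.33), the repair nuclease gene EXO1 (-2.75 ± 0.48), ANKRD1 (-2.73 ± 0.38), the cohesin acetyltransferase gene ESCO2 (-2.71 ± 0.39) and the spindle protein gene DLGAP5 (-2.65 ± 0.33). All of these except ANKRD1 were called higher in shFXR cells without radiation and lower after it. NCAPG, for example, had 2.47, 5.09 and 8.35 CPM in irradiated shControl and 1.08, 0.803 and 0.763 CPM in irradiated shFXR libraries, and 5.75, 9.48 and 10.3 against 15.7, 12.6 and 16.2 CPM in sham cells. ANKRD1, a muscle and YAP-responsive gene, had 3.38, 4.95 and 4.83 against 18.8, 17.3 and 32.6 CPM in sham cells and 8.94, 20.6 and 20.9 against 14.2, 14.5 and 11.2 CPM after radiation, where the lines were not called apart in edgeR (adjusted p = 0.3); it was called lower with no filter on low counts (adjusted p = 0.0351) and without irradiated shControl library 1 (-0.643, adjusted p = 0.0165).

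The 6 with a higher effect after radiation were SERPINA5 (1.92 ± 0.47), SPOCK1 (1.81 ± 0.22), SMOC1 (1.64 ± 0.28), CDK18 (1.51 ± 0.37), LMNTD2 (1.49 ± 0.26) and the acid-sensing channel gene ASIC3 (1.45 ± 0.24). SPOCK1 was higher in shFXR cells in both treatments. SERPINA5, a protease inhibitor gene, and SMOC1, a matrix protein gene, were called lower in sham shFXR cells (-2.23 ± 0.34 and -1.59 ± 0.20) and were not called after radiation. SERPINA5 had 8.44, 3.95 and 2.87 CPM in irradiated shControl libraries, with library 1 apart from the other two, and 3.35, 3.21 and 5.72 CPM in irradiated shFXR libraries. LMNTD2 and ASIC3 were called in opposite directions in the 2 treatments.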

How the results depend on the processing

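The number of genes called between the irradiated lines was 6555 and stayed within 1.5 times of it under all 16 alternatives, from 5393 without irradiated shFXR library 3 to 8809 with limma's library weights; DESeq2 gave 6345. Calls of at least 2-fold, 1344 after radiation, 1185 in sham cells and 477 for the difference, fell to 553, 427 and 220 among genes of at least 5 CPM, where fewer genes are tested. The difference of the effects rose from 2405 to 4299 genes with library weights (2119 higher, 2180 lower, 831 at least 2-fold); the cause was not tested. Without 1 library it ranged from 1157 to 3250, with 589 to 1506 higher, 568 to 1744 lower and 269 to 729 at least 2-fold. Of 296 called genes named by rule, 273 were called in every alternative that tested them. With total counts, higher calls outnumbered lower ones, 3602 to 2799 in irradiated and 3819 to 2465 in sham cells. Values that changed sign were not called: SERPINA5 became 0.276 without irradiated shControl library 1 (down to -0.631 without irradiated shFXR library 3), CDKN1A 0.02 with total counts, and SMOC1 -0.148 without irradiated shControl library 3 and -0.035 without irradiated shFXR library 1 (up to 0.304 without irradiated shControl library 1). Total counts moved the median of all genes by 0.053. Same-numbered libraries of the irradiated groups had correlations of deviations of -0.073, -0.0268 and -0.0458, so the numbers do not pair them. With a replicate block 6461 genes were called, and of the genes named here only IL18 lost its call (0.209, adjusted p = 0.0627). Genes under about 1 CPM, such as CD274, are limited by depth: 16.1% of those were called against 57.7% of genes of at least 100 CPM.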

Other observations

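Transcription factor genes, by the family annotation in the deposited table, were called in 36.8% of 1108 cases, 252 higher and 156 lower, beside 45.3% of 13299 protein-coding genes; this difference was not tested. Homeobox genes were higher in 33 of 98 cases and lower in 13, with a median log2 fold change of 0.27 in irradiated and -0.01 in sham cells. GATA-type zinc finger genes were higher in 7 of 12 cases and lower in 1, and ARID genes in 7 and 0 of 13. Of all tested genes 19.5% were higher and 21.3% lower. The nuclear receptor family annotated as THR-like, was lower in 8 of 17 cases, NR1H4 itself among them, and higher in 0, beside 21.3% of all tested genes lower. Within a wider list of 33 nuclear receptors other than FXR, 8 fell and 3 rose, 33.3% called beside 40.8% of all tested genes. NR1H2 and NR1H3, the liver X receptors that sense oxysterols, fell by 1.03 and 0.47 on the log2 scale, NR1H2 from 94.9, 99.5 and 106 to 48.4, 47.9 and 50.5 CPM. The cholesterol exporter gene ABCA1, a classical target of those receptors, rose from 64.6, 63.1 and 57.0 to 103, 109.5 and 99.5 CPM. ABCG2, a drug efflux transporter gene, fell from 26.2, 30.3 and 30.4 to 6.99, 6.83 and 4.74 CPM. Of 17 neuronal and neuroendocrine genes 6 rose and 4 fell, 58.8% called beside 40.8% of all tested genes. The microtubule protein gene MAP2 went from 25.6, 24.8 and 22.6 to 76.2, 78.1 and 71.4 CPM and the adhesion gene NRCAM from 246, 275 and 256 to 157, 172 and 143 CPM.

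Among noncoding RNAs, the imprinted MEG3 rose from 9.48, 5.95 and 4.45 to 24.8, 26.8 and 28.2 CPM (log2 2.00 ± 0.20; 0.39 ± 0.21 in sham cells, not called), and its shControl libraries were spread more than its shFXR libraries. NALT1 rose by 1.46 ± 0.14 and EPB41L4A-AS1 by 1.10 ± 0.09. The sources used here do not give the strand setting of the counting, so reads of an antisense RNA and of its partner gene cannot be told apart. CIB4, a calcium-binding protein gene, had no count in irradiated shFXR cells: it had 13, 6 and 6 counts in the shControl libraries and 0 in each shFXR library, a level at least 8.19-fold lower against a floor of 3 counts over the group. Calls were uneven over chromosomes. On chromosome 19, 27.8% of 1087 genes were higher and 10.9% lower, with a median of 0.13 (-0.06 in sham cells), and on chromosome 16, 26.6% of 749 were higher and 14.3% lower. On chromosome 4, 15.6% of 589 were higher and 28.9% lower. The part of base composition or gene length in these shares was not tested.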
